A study of Mus musculus with 4 samples.

Results

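Chromatin accessibility at 10 genes of fatty acid synthesis, storage and uptake was examined in visceral fat from the outbred mouse stock CD-1. The 10 genes were grouped by their function, and they are 10 of 21000 protein-coding genes with a curated RefSeq start site on the mm10 assembly. They were Fasn, Acaca, Acly, Scd1, Elovl6, Dgat1, Dgat2, Lpl, Cd36 and Me1. For each gene the peaks within 500 bp of a curated start site were taken as promoter peaks, and all peaks from 20 kb upstream of the first start site to the gene end were taken as its window. Overlapping peaks of the libraries were merged into regions, and the 10 windows held 125 of 147142 regions on the nuclear chromosomes.

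The accessibility assay was ATAC-seq, in which a transposase inserts adapters into open chromatin so that piled-up reads mark accessible sites. There were 4 libraries from 4 mice, 2 in each group, with the authors' peak list for each. The study's methods give an age of 8 weeks for the mice used, and no separate age for the descendants at sampling. The control mice descended from dams injected with the sesame oil vehicle, and the BPA mice from dams injected with the plasticiser bisphenol A at 50 mg/kg in that oil, on embryonic days 7.5 to 13.5. No mouse carried an engineered allele, and the animals studied were descendants of the exposed dams, not the injected animals. The generation of the BPA mice is given differently in the labels and in the study's methods. Sex and batch were not labelled, the peak lists of control 1, control 2 and the BPA pair were named after different patterns and that of BPA 2 has a replicate number other than the labelled one, so that a batch and the treatment cannot be told apart.

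Adipocytes make fatty acids from citrate exported by mitochondria. Acly cleaves citrate to acetyl-CoA, Acaca carboxylates acetyl-CoA to malonyl-CoA, and Fasn builds palmitate from both with NADPH that Me1 helps to supply, after which Elovl6 elongates and Scd1 desaturates the chain. Preformed fatty acids enter from the blood after Lpl has hydrolysed lipoprotein triglyceride at the capillary wall and Cd36 has taken them up, and Dgat1 and Dgat2 add the last chain to make triglyceride. Sterol regulatory element-binding protein, NF-Y and Sp1 are known regulators of promoters of this pathway, and PPARγ and C/EBP factors of the uptake genes in adipocytes.

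The peak lists held 72375 to 98060 peaks, with a median pile-up at the summit of 19 to 38 reads and a median fold over local background of 3.91 to 5.69. Read totals are not given in them. Values were therefore compared as ranks, where the rank of a peak is the percentage of peaks in its own list whose −log10 q-value is at least as high, so that a low rank marks a strong peak. Of the cell type markers examined, all 7 adipocyte genes had a promoter peak in every library and none of 3 hepatocyte genes had one in any. Of 12 endothelial marker genes, 4 had a promoter peak in control 1, 2 in control 2 and all 12 in each BPA library. Leukocyte markers had promoter peaks at 2, 3, 5 and 6 of 9 genes in control 1, control 2, BPA 1 and BPA 2. In bulk tissue, more cells of a type and more accessibility per cell cannot be told apart.

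The reference promoter sequences show which start sites the peaks lay on and how they differ in composition. RefSeq sequences of GRCm38.p6, from 250 bases before to 50 after a start, were at hand for 6 of the 10 genes, with 7 start sites in all. They are printed 5′ to 3′ on the strand of the gene, and CD-1 mice can differ from them. Capitals mark matches on either strand to 7 motifs: CCAAT (the NF-Y box), GGGCGG (the GC box), CACGTG (an E-box), TATAAA (the TATA box), TCACNCCAC (a sterol regulatory element), AGGTCA (a nuclear receptor element) and TTGCNNAA (a C/EBP site). Neighbouring or overlapping matches run together as 1 stretch of capitals. Fasn lies at chr11:120805958-120824547 on the minus strand, Acly at chr11:100476352-100528000 on the minus strand, Elovl6 at chr3:129532386-129638495 on the plus strand, Cd36 at chr5:17781690-17888959 on the minus strand, Me1 at chr9:86581363-86695914 on the minus strand and Acaca at chr11:84195438-84401651 on the plus strand.
Fasn promoter, chr11:120824498-120824797: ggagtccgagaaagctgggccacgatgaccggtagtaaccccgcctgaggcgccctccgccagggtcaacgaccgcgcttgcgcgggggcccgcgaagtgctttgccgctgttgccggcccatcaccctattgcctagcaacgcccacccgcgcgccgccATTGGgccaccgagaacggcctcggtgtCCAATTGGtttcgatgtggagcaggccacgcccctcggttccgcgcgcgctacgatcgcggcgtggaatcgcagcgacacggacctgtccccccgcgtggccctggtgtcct
Acly promoter, chr11:100527951-100528250: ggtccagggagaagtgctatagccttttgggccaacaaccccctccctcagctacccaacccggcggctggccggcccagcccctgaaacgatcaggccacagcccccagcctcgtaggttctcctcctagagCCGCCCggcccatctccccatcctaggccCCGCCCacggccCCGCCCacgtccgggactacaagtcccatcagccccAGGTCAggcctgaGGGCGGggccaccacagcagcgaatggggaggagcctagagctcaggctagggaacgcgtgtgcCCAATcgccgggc
Me1 promoter, chr9:86695865-86696164: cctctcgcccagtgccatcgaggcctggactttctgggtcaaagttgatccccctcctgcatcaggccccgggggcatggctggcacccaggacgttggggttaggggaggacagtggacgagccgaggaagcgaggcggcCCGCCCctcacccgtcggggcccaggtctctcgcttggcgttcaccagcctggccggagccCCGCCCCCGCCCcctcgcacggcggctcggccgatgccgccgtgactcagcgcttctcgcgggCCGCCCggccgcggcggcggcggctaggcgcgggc
Me1 promoter of the inner start site, chr9:86687228-86687527: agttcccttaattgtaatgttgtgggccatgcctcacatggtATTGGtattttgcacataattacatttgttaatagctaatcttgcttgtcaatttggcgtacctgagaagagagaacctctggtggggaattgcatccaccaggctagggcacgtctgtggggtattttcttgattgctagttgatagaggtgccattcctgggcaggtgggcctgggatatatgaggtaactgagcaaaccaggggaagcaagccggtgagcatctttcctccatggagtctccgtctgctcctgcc
Cd36 promoter of the innermost start site, chr5:17835847-17836146: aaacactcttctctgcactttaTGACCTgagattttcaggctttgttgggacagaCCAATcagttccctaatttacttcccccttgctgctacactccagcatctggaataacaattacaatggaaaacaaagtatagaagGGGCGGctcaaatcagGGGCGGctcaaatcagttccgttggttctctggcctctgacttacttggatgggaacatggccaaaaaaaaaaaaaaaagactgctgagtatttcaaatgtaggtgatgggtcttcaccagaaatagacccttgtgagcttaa
Elovl6 promoter, chr3:129532136-129532435: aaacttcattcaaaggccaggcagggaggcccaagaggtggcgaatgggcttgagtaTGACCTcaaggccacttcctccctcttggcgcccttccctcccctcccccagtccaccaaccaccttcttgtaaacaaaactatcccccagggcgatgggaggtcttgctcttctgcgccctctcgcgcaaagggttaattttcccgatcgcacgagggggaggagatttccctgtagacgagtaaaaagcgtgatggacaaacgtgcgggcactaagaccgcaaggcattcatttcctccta
Acaca promoter of the curated start site, chr11:84195188-84195487: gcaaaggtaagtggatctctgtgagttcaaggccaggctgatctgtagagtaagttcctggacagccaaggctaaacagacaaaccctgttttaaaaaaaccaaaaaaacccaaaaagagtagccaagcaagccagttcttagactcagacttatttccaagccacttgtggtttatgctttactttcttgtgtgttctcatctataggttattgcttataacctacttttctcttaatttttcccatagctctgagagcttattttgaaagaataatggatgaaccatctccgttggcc

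The promoters fell into rich and poor ones in G+C. The 300 bases of Fasn were 69.3% G+C with 39 CG dinucleotides, and those of the outer Me1 start were 74.7% with 35. Acly had 68.7% with 18, and Elovl6 had 55.7% with 14. The Cd36 sequence had 43.0% with 3, the inner Me1 start 48.3% with 4, and the Acaca sequence 39.7% with 1. The Fasn promoter held 3 matches to CCAAT, of which a pair shares letters in opposite orientation, and it held no match to the other motifs. The outer Me1 promoter held 4 matches to GGGCGG, Acly held 4 to GGGCGG with 1 each to CCAAT and AGGTCA, and Cd36 held 2 to GGGCGG with 1 each to CCAAT and AGGTCA. The NF-Y box CCAAT was in 4 of the 7 sequences and in 37.4% of 32851 mouse promoters of the same length. GGGCGG was in 3 of 7 against 35.7%, and AGGTCA in 3 of 7 against 16.3%. The E-box, the TATA box, the sterol regulatory element and the C/EBP site, held by 7.15%, 13.6%, 1.24% and 10.8% of mouse promoters, had no match in the 7 windows. These letter matches do not show that a factor was bound.

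Promoter accessibility was common to the genes of synthesis, storage and uptake. A promoter peak was present in all 4 libraries at 8 of the 10 genes (80.0%), against 57.9% of the 21000 coding genes. The exceptions were Acaca, with no promoter peak in any library as 30.4% of coding genes had, and Elovl6, which lacked one in BPA 1. On average 8.75 genes per library had a promoter peak. No gene had its promoter peak in both libraries of 1 group and in neither of the other. Among coding genes that pattern occurred at 2.5% for BPA and 0.433% for control. When summits rather than whole peaks had to lie within 500 bp, Scd1 had a promoter peak in both control libraries and neither BPA library. Its BPA summits lay 603 and 582 bp from the curated start, not far outside that limit. The share of coding genes with this pattern by summits was not computed.

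The comparison of the groups asked whether the promoter peaks ranked differently in descendants of BPA-exposed dams. Of the 8 promoters with a peak in every library, 5 ranked better in both BPA libraries than in both control libraries, namely Fasn, Acly, Dgat1, Lpl and Cd36. That is 62.5%, against 40.7% of the 12157 coding genes with a peak in all 4 libraries. The promoters of Scd1 and Me1 ranked better in both control libraries, or 25.0% against 18.7% of coding genes, and Dgat2 overlapped between the groups. The median difference in mean rank, BPA minus control, was −6.84 percentage points over the 8 genes and −1.85 over the 12157. The control median rank was 14.6% for the 8 genes and 9.05% for the 12157, so the differences start from unlike levels. The promoters of the 7 adipocyte marker genes had no common direction, with 1 gene better in each group, the other 5 overlapping and a median of 8.77. At Adipoq, Plin1 and Cidec only control 2 ranked low, at 20.3%, 23.1% and 31.1%. The other libraries had ranks of 47.5% to 89.0% at these genes. Control 2 also ranked best at Lep and Retn, at 51.2% and 11.4%. At Lipe it ranked worst, at 14.2% against 3.02%, 3.32% and 1.94% in control 1, BPA 1 and BPA 2. Pnpla2 had 28.6% and 20.8% in the controls and 14.4% and 5.82% in BPA. Better ranks in BPA were thus the more frequent order over all coding genes, and 8 genes are too few to set apart from that background. No test was run, since the smallest two-sided p that exact permutation of 2 against 2 libraries allows is 0.33.

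**Figure D1:**
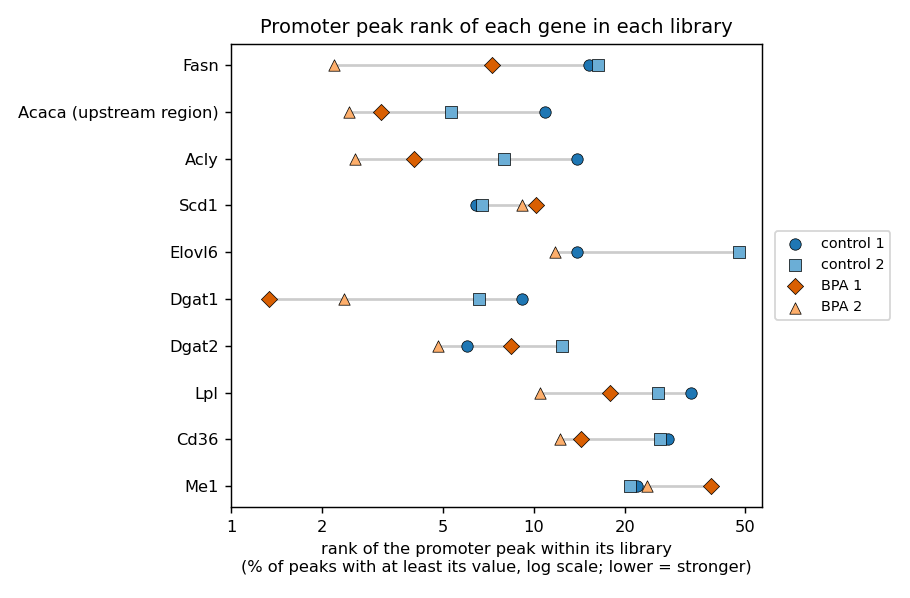
Rank of the strongest promoter peak of each gene within its library, in percent on a log axis, with 1 point per library and a grey line from the lowest to the highest. For Acaca the peak of the region 15858 bp upstream of the curated start is drawn, since no peak lay at that start, and Elovl6 has no point for BPA 1. Both BPA points of Fasn, Acly, Dgat1, Lpl and Cd36 lie left of both control points, and those of Scd1 and Me1 lie right of them.

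Among the enzymes that make fatty acids, Fasn differed most. Its promoter peak had ranks of 15.3% and 16.3% in control 1 and 2, and of 7.26% and 2.19% in BPA 1 and 2. The control mean was 15.8% ± 0.733 (SD, n = 2) and the BPA mean 4.73% ± 3.59 (SD, n = 2). The difference of −11.1 points exceeded the spread in either group. The pile-up at the summit was 50 and 54 reads in the controls and 113 and 493 in BPA, and the fold over local background was 4.84, 5.25, 8.25 and 8.47 in the same order. The summits lay between 117 bp upstream and 115 bp downstream of the start site, on either side of the CCAAT matches printed above. Acly, which supplies the acetyl-CoA, had ranks of 13.9%, 7.99%, 4.02% and 2.57% in control 1, control 2, BPA 1 and BPA 2. Its group means were 11.0% ± 4.20 and 3.29% ± 1.02 (SD, n = 2 each).

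Scd1 and Me1 ran in the other direction. Scd1, the main stearoyl-CoA desaturase of adipose tissue, lies at chr19:44394450-44407709 on the minus strand. Its promoter ranked at 6.42% and 6.75% in the controls and at 10.2% and 9.16% in BPA, with means of 6.58% ± 0.228 and 9.69% ± 0.741 (SD, n = 2 each). The summits of both BPA libraries lay 603 and 582 bp upstream of the start, and those of the controls 415 and 239 bp upstream. Me1, the cytosolic malic enzyme, ranked at 21.9% and 20.9% in the controls and at 38.7% and 23.6% in BPA, so that the difference in means of 9.78 points was below the SD of 10.7 between the BPA libraries. The order of neither gene held for all measures. When peaks were ranked by fold over background, Scd1 had ranks of 6.93%, 14.3%, 11.5% and 8.33% and Me1 had 24.5%, 24.1%, 31.6% and 20.3% in control 1, control 2, BPA 1 and BPA 2, and the groups overlapped for both. The Me1 peaks lay at the outer, G+C-rich start site in every library, and no library had a peak within 500 bp of the inner one.

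The triglyceride-forming acyltransferases had strong promoter peaks in every library. Dgat1, at chr15:76502012-76511994 on the minus strand, had the strongest promoter peak of all 10 genes in BPA 1. Its ranks were 9.15% and 6.57% in the controls and 1.33% and 2.37% in BPA, and the means were 7.86% ± 1.83 and 1.85% ± 0.732 (SD, n = 2 each). Dgat2, at chr7:99153663-99182713 on the minus strand, had ranks of 6.02%, 12.4%, 8.44% and 4.81%, and the groups overlapped. Dgat2 peaks stood on a raised local background. The median background of the peaks in the Dgat2 window was 2.57, 3.76, 6.40 and 9.21 times the lowest of the list in control 1, control 2, BPA 1 and BPA 2, while the medians over whole lists were 1.60, 1.58, 2.06 and 1.73.

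In controls, the promoter peaks of the uptake genes ranked behind those of the other genes with one, except Elovl6 in control 2. Their pile-ups in control 1 and 2 were 46 and 60 reads at Lpl and 51 and 55 at Cd36. Those of Fasn were 50 and 54, and those of Me1 35 and 39. The local background was 4.75 and 5.90 times the lowest of the list at Lpl and 5.12 and 5.09 at Cd36. It was 3.35 and 3.51 at Fasn and 2.11 and 2.14 at Me1. Lpl, which hydrolyses lipoprotein triglyceride, lies at chr8:68880555-68906932 on the plus strand and had ranks of 33.2% and 25.8% in the controls and 17.9% and 10.5% in BPA. The means were 29.5% ± 5.26 and 14.2% ± 5.26 (SD, n = 2 each), and the difference of −15.3 points was the widest of the 8 genes. Cd36, the fatty acid translocase, has 3 curated start sites. Its strongest promoter peak lay at the innermost start in every library, with ranks of 27.9%, 26.2%, 14.3% and 12.3% and means of 27.0% ± 1.22 and 13.3% ± 1.48 (SD, n = 2 each). The middle start had ranks of 32.7%, 38.8%, 47.4% and 30.5%, which overlapped between the groups. The outermost start had weak peaks with ranks of 76.4%, 54.2% and 98.4% in control 1, control 2 and BPA 2, and none in BPA 1. The 3 starts of Cd36 thus did not move together. Cd36 and Lpl act in or at the endothelium of fat as well as in adipocytes, and endothelial marker promoters had peaks at 4 and 2 of 12 genes in the controls and at 12 of 12 in each BPA library. The part of endothelial cells in these differences was not tested.

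Among the members, the G+C of promoters better in BPA spanned that of promoters better in control. The part of base composition in the direction was not tested. Over the 1001 bp around the start, G+C was 70.6% for Fasn, 62.04% for Acly, 63.2% for Dgat1, 53.7% for Lpl and 35.6% for the innermost start of Cd36, all of which ranked better in BPA. It was 56.1% for Scd1 and 66.7% for the outer start of Me1, which ranked better in control, and 61.0% for Dgat2. Over all coding genes, each taken at its start site of highest G+C, the median was 62.4% for promoters better in both BPA libraries. It was 56.0% for those better in both control libraries. By that measure Cd36 had 39.9%, at its outermost start.

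Acaca, the rate-limiting step of synthesis, had no accessible region at its curated start. No library had a peak within 500 bp of that start, whose sequence is the poorest in CG of the 7 printed promoters. The nearest strong region lay 15858 bp upstream, at chr11:84178813-84180946, and overlapped 2 GENCODE start sites of Acaca at positions 84179831 and 84179858. It had ranks of 10.9% and 5.31% in the controls and 3.14% and 2.45% in BPA, with pile-ups of 61, 75, 140 and 439 reads, so that the groups did not overlap and BPA ranked better. A further GENCODE start at position 84129672, outside the window, had ranks of 17.7%, 30.6%, 10.8% and 7.11%. With GENCODE in place of curated RefSeq start sites, a choice made after seeing the data, 9 of the 10 genes had promoter peaks throughout and 6 ranked better in both BPA libraries.

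Elovl6, which elongates palmitate, had its strongest signal inside the gene. A merged region at chr3:129532101-129534614 began near the start site. The summits of its strongest peaks lay 1541, 1645 and 1621 bp downstream in control 1, control 2 and BPA 2. Control 2 also had a weaker peak, with a rank of 66.4%, whose summit lay within 500 bp of the start. The BPA 1 peak did not reach within 500 bp of the start. The ranks over this region were 13.9% and 47.6% in the controls and 38.8% and 11.8% in BPA. The region that ranked best by its weakest library was in an intron 4028 bp downstream, at chr3:129536117-129536839, with ranks of 4.69% and 6.41% in the controls and 14.9% and 25.0% in BPA. The groups did not overlap there, and control ranked better.

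**Figure D2:**
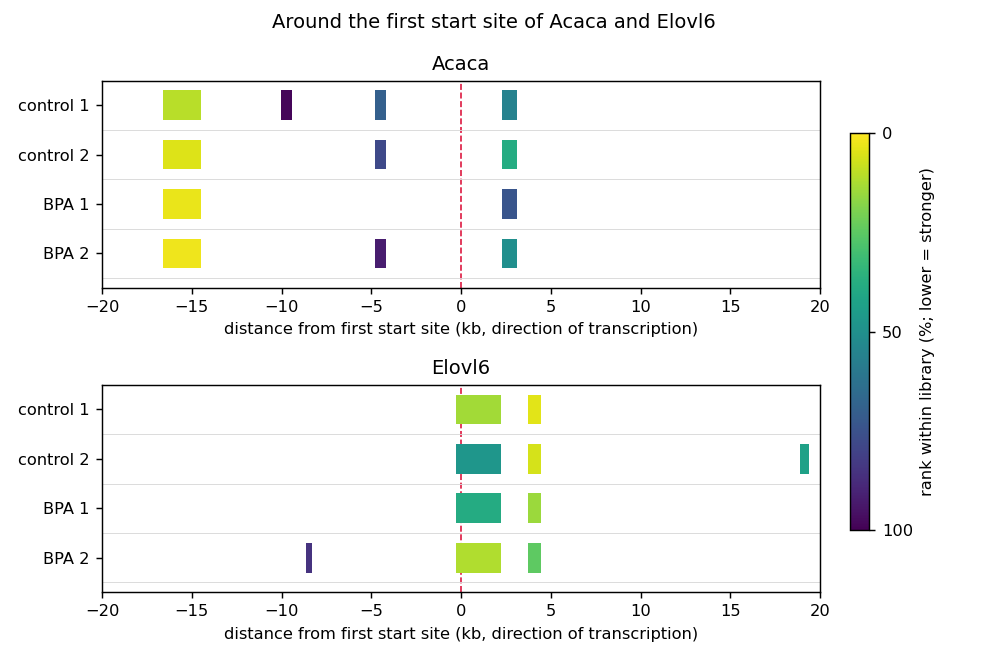
Merged regions within 20 kb of the first curated start site (red dashed line) of Acaca and Elovl6, with 1 row per library. A bar is drawn over the whole merged region where that library had a peak, and its colour gives the rank within the library, with yellow for strong peaks. At Acaca the strong region lies 15858 bp upstream and no bar covers the start site, and at Elovl6 the region 4028 bp downstream has ranks of 4.69% and 6.41% in the control rows and 14.9% and 25.0% in the BPA rows.

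Summit sequences are shown for regions outside curated promoters at Acaca, Elovl6, Cd36 and Me1, namely the upstream region of Acaca, the intronic ones of Elovl6 and Cd36 described in the text, and group-specific ones of Cd36 and Me1. Each is the 101 bases around the summit of the strongest library, on the plus strand of GRCm38, with the same motifs in capitals.
Acaca upstream region, all libraries, chr11:84179530-84179630: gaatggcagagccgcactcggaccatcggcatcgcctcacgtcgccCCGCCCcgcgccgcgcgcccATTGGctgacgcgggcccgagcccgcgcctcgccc
Elovl6 intronic region, all libraries, chr3:129536364-129536464: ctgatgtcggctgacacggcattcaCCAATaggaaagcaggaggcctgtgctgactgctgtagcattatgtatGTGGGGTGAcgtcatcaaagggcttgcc
Cd36 intronic region, all libraries, chr5:17876882-17876982: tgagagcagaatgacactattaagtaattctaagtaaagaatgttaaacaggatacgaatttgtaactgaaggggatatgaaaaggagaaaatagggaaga
Cd36 intronic region, BPA only, chr5:17880064-17880164: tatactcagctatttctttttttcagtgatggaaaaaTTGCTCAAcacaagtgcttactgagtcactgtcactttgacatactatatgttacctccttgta
Cd36 upstream region, BPA only, chr5:17898968-17899068: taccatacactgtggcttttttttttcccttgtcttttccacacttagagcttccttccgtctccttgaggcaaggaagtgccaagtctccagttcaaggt
Me1 intronic region, control only, chr9:86670498-86670598: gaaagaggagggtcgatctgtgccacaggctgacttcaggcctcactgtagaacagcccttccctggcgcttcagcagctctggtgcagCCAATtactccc
Me1 intronic region, control only, chr9:86606015-86606115: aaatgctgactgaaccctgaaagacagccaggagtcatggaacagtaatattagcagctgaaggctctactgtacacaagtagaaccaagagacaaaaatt

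The Acaca upstream sequence resembled a promoter in composition, with 78.2% G+C, 18 CG dinucleotides and matches to GGGCGG and CCAAT. The Elovl6 sequence held a match to CCAAT and another to TCACNCCAC on the minus strand. The latter motif was in 0.365% of the 147142 summit windows of the same length, and CCAAT in 13.6%. The BPA-only intronic sequence of Cd36 held a match to TTGCNNAA, which was in 7.18% of summit windows. The strong Cd36 intronic sequence, the BPA-only upstream sequence of Cd36 and the control-only Me1 sequence at chr9:86606015-86606115 held none of the 7 motifs.

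Over the whole windows, regions were shared among libraries as they were elsewhere. Of the 125 regions, 35 (28.0%) had a peak in all 4 libraries, against 30.1% of the 95056 regions in the windows of all coding genes. Control-specific regions, present in both control libraries and neither BPA library, numbered 5 (4.0%, against 4.64%). BPA-specific regions, defined the other way, numbered 11 (8.80%, against 9.72%). A further 35 regions were shared by other sets of 2 or 3 libraries, and 39 (31.2%) were seen in 1 library, of which 18 in control 2. Shares over the windows of all coding genes were not computed for these further classes. The specific counts depended on each library. Control-specific regions rose to 23 without control 1, 15 without control 2 and 16 without BPA 2, where fewer libraries have to agree. BPA-specific regions numbered 15 without control 1, 23 without control 2, 19 without BPA 1 and 16 without BPA 2. BPA-specific regions thus numbered 15 against 23 control-specific ones without control 1, and 16 against 16 without BPA 2. They numbered 23 against 15 without control 2, and 19 against 5 without BPA 1. A group left with 1 library needs a peak in that library only, so the definitions then differ between the groups. These counts therefore cannot decide whether the excess of BPA-specific regions holds.

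**Figure D3:**
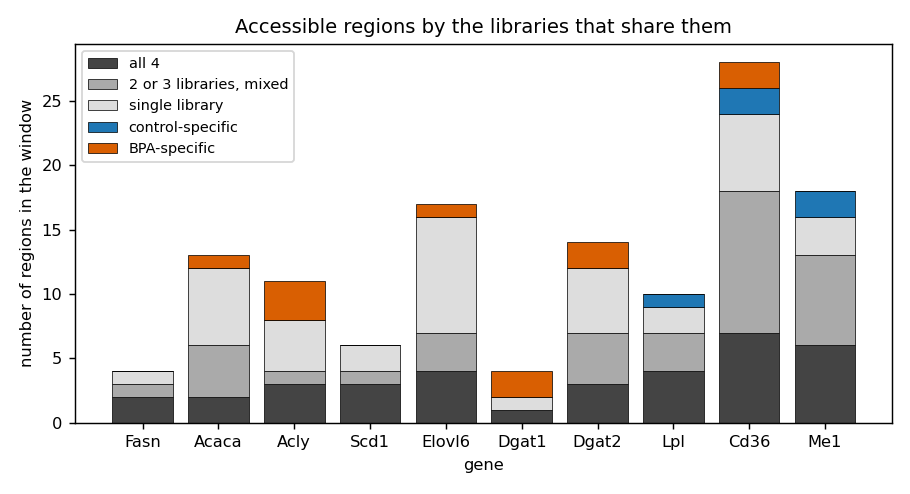
Number of merged regions in the window of each gene, stacked by the libraries that share them. Cd36 has the most regions, 28, and Fasn and Dgat1 the fewest, 4 each. Control-specific regions occur at Lpl, Cd36 and Me1, and BPA-specific ones at Acaca, Acly, Elovl6, Dgat1, Dgat2 and Cd36.

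Among the regions outside promoters, the rank order was the reverse of that at the promoters. Of 24 such regions with a peak in all libraries, 4 (16.7%) ranked better in both BPA libraries and 9 (37.5%) better in both control libraries, while 11 overlapped. The same reversal was present over the windows of all coding genes, where 22.7% of 16470 regions outside promoters ranked better in BPA and 30.5% better in control. With promoters included, 9 of 35 regions ranked better in BPA and 11 in control, against 30.4% and 25.3% of 28615. With both kinds of site together, the members' shares were thus 25.7% and 31.4%, and 35 regions are too few to set their order apart from the coding windows. The mix of sites also differed, with 24 of the 35 outside promoters, against 16470 of 28615. The upstream region of Acaca, which lies on GENCODE start sites, was counted among the regions outside promoters.

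**Figure D4:**
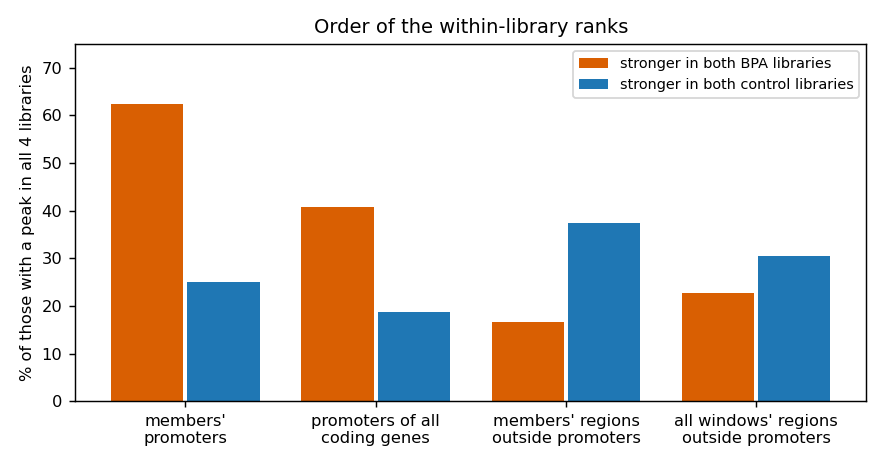
Percentage of promoters or regions with a peak in all 4 libraries whose ranks were better in both BPA libraries (orange) or in both control libraries (blue). The members' promoters are 8 genes and their regions outside promoters 24, beside 12157 coding genes and 16470 regions. Orange exceeds blue at promoters, 62.5% against 25.0% for the members, and blue exceeds orange outside them, 37.5% against 16.7%.

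Intronic regions were the most numerous, at 74 of 125, and 12 of them were present in all libraries. The share of intronic regions over the windows of all coding genes was not computed, so these counts describe the members' windows only. They lay in Me1 (5), Cd36 (3), Elovl6 (3) and Acaca (1). The number rose to 20 without control 1. Of the intronic regions, 26 (35.1%) were seen in 1 library. Fasn had none.

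Me1 had most of its accessible sites inside the gene, and control 2 had more of them than any other library. Its window of 134.6 kb held 18 regions, 15 of them intronic, and 12, 17, 8 and 13 regions carried peaks of control 1, control 2, BPA 1 and BPA 2, respectively. These are 66.7%, 94.4%, 44.4% and 72.2%, against 55.8%, 58.7%, 52.1% and 71.7% over the windows of all coding genes, so that control 2 stood furthest above the background. Of the 6 regions common to all libraries, 3 ranked better in both control libraries and none in both BPA libraries. The intronic region at chr9:86643128-86644322 had ranks of 18.2% and 16.2% in the controls and 58.0% and 42.0% in BPA. Both control-specific regions of Me1 were intronic. The one at chr9:86670060-86670645 had ranks of 53.2% and 13.1% in control 1 and 2, and the one at chr9:86605354-86606398 had 45.3% and 30.3%. No region of Me1 was BPA-specific. The best-ranked region away from the promoter by its weakest library was intronic as well, at chr9:86617697-86618524, with ranks of 35.5%, 45.2%, 29.4% and 44.9% in control 1, control 2, BPA 1 and BPA 2.

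Cd36 had specific regions of both kinds. The strongest site in its window in both controls was intronic, at chr5:17875997-17877658, 12027 bp downstream of the outermost start, with ranks of 7.23% and 4.99% in the controls and 18.7% and 13.3% in BPA. Control thus ranked better there, while BPA ranked better at the innermost promoter, which was the stronger of these sites in both BPA libraries. A BPA-specific region lay 10059 bp upstream of the outermost start, at chr5:17898640-17899650, with ranks of 36.7% and 28.6% and folds of 8.35 and 7.34 in BPA 1 and 2. Another was intronic, at chr5:17879956-17880390, with ranks of 42.1% and 39.9%. The control-specific regions of Cd36, at chr5:17824617-17825051 and chr5:17887305-17888040, were intronic and weaker, with ranks of 85.6% and 68.8% for the former and 97.7% and 76.2% for the latter. A peak this low in a list is near the calling threshold, and its absence from another library does not show closed chromatin.

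**Figure D5:**
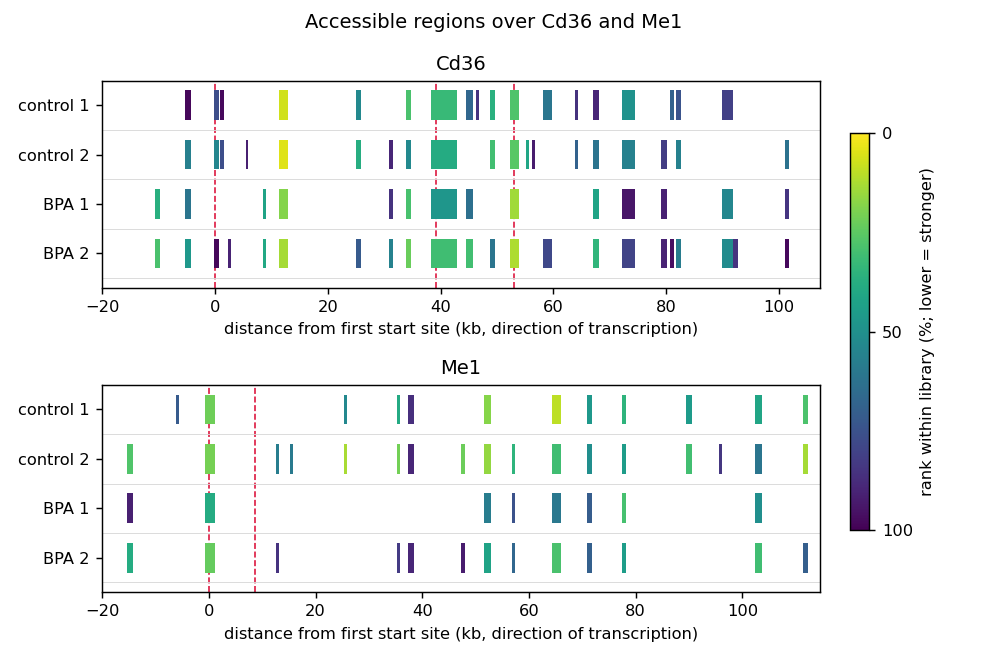
Merged regions over the windows of Cd36 and Me1 by distance from the first curated start site in kb, with 1 row per library and red dashed lines at the curated start sites. A bar is drawn over the merged region where the library had a peak, coloured by the rank within the library. Cd36 has bars at 10059 bp upstream in the BPA rows only, and Me1 has 12 and 17 bars in the control rows and 8 and 13 in the BPA rows.

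The other specific regions were mostly weak. Acly had 3 BPA-specific regions. An intronic one at chr11:100486062-100486560 had ranks of 95.7% and 68.3% in BPA 1 and 2, one over a coding exon at chr11:100493613-100494206 had 67.4% and 69.8%, and an intronic one at chr11:100516317-100516750 had 93.7% and 73.3%. Acaca had an intronic region in BPA only at chr11:84350548-84351772 (63.0% and 30.2%), and Elovl6 one at chr3:129631265-129631608 (90.9% and 99.6%). Dgat2 had an intronic one at chr7:99172500-99173956 (71.1% and 68.6%) and one 976 bp upstream of its start at chr7:99183675-99183978 (92.5% and 95.6%). Upstream of Dgat1, the BPA-specific regions lay at the neighbouring gene Scrt1, a transcriptional repressor of the Snail family. One lay on the Scrt1 promoter at chr15:76522216-76523658 (43.0% and 36.7%) and the other inside Scrt1 at chr15:76517933-76518895 (84.1% and 61.0%). The control-specific region of Lpl was intronic, at chr8:68890534-68891298, with ranks of 91.1% and 81.2% in the controls.

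Upstream regions common to all libraries were found, besides that of Acaca, at Lpl, Dgat2, Scd1, Acly, Fasn and Cd36. Lpl had the stronger pair. The region 14323 bp upstream, at chr8:68865354-68866727, had ranks of 25.9%, 11.5%, 16.6% and 11.8% in control 1, control 2, BPA 1 and BPA 2, better than its own promoter in control 1, control 2 and BPA 1. The region 19675 bp upstream, at chr8:68860397-68861350, had ranks of 41.8%, 4.91%, 18.0% and 18.4%. Both overlapped between the groups. Scd1 had a region 14565 bp upstream at chr19:44422022-44423001 with ranks of 64.3%, 47.9%, 46.2% and 28.9%, better in BPA. Dgat2 had one 6115 bp upstream at chr7:99188599-99189520 with ranks of 62.2%, 30.3%, 68.4% and 78.9%, better in control, as was another 16253 bp upstream. The Fasn window had a region 6339 bp upstream, inside the neighbouring gene Ccdc57, with ranks of 73.5%, 39.4%, 58.7% and 33.0%. The strong region 17601 bp upstream of Acly was the promoter of another gene, Ttc25. Away from promoters, the region of Acly common to all libraries overlapped a coding exon, at chr11:100504854-100505336, with ranks of 71.0%, 47.9%, 99.7% and 88.8%. At Acaca the intronic region 2789 bp downstream of the start, at chr11:84197715-84198548, had ranks of 55.9%, 38.3%, 73.8% and 50.6%.

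Other genes of the pathway showed the same direction at their promoters. Of 77 genes in 5 lists, 62 (80.5%, against 57.9% of coding genes) had a promoter peak in all libraries. Of these, 35 (56.5%, against 40.7%) ranked better in both BPA libraries and 5 (8.06%, against 18.7%) better in both control libraries, with a median difference of −6.36 points. In glycerolipid assembly, 8 of 12 genes ranked better in BPA and 0 better in control, with a median of −12.2 points. The counts were 6 and 0 of 8 for the supply of acetyl-CoA, malonyl-CoA and NADPH, 7 and 3 of 13 for elongation and desaturation, 7 and 2 of 15 for lipoprotein hydrolysis and uptake, and 7 and 0 of 14 for regulators of lipogenesis. The medians of these other lists were −4.77, −5.42, −2.55 and −2.78 points in the same order, against −1.85 over all coding genes. The lists for uptake and for regulators thus lay near that background. The control ranks from which these lists start were not set beside those of all coding genes. The lists were chosen with earlier results of these data known, and the counts are a description.

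The widest gaps in favour of BPA were at Fads3, Srebf1 and Agpat2. Fads3, of the fatty acid desaturase family, had ranks of 62.5% and 39.4% in the controls and 13.6% and 9.08% in BPA. Srebf1, which encodes the sterol regulatory element-binding protein of lipogenesis, had 26.2% and 29.8% against 6.14% and 2.50%. Agpat2, the acyltransferase that makes phosphatidic acid, had 33.3% and 39.8% against 13.7% and 5.77%. In favour of control the gaps were narrow, at Tecr (2.58% and 3.07% against 7.77% and 6.18%), Slc27a1 (4.30% and 6.72% against 15.4% and 8.15%) and Elovl7 (16.3% and 18.1% against 25.2% and 18.8%). Tecr completes each elongation cycle, Slc27a1 is a fatty acid transport protein and Elovl7 an elongase.

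Promoter peaks were present in both BPA libraries and neither control library at 2 of the 77 genes, or 2.60% against 2.5% of coding genes. Thrsp, a lipogenic gene also called Spot 14, had ranks of 34.7% and 22.1% in BPA 1 and 2. Gpihbp1, the endothelial protein that holds Lpl at the capillary wall, had 58.5% and 41.7%. Gpihbp1 is also 1 of the 12 endothelial markers, of which 8 had this pattern, and the part of endothelial cells in its value was not tested. No pathway gene had the opposite pattern, which 0.433% of coding genes had.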

How the data were processed

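ATAC-seq reads of 4 CD-1 visceral adipose libraries, 2 per group, were trimmed by the authors (Trim Galore), aligned to mm10 (Bowtie2 2.3.5.1), stripped of PCR duplicates, and used to call peaks on each library alone (MACS2 2.2.7.1, per the submitters' processing notes). The deposited columns are a score, the fold (a ratio) of the summit pile-up over local background, the −log10 p-value and −log10 q-value, and the distance of the summit from the peak start.

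Ranks by −log10 q-value were computed within each list, and peaks on chromosomes 1 to 19, X and Y that overlapped or touched were merged across libraries. Start sites were those of 45756 curated RefSeq transcripts. An intronic region touched no exon of the gene and no promoter. Pile-ups and backgrounds were solved from fold and p-value and returned the p-value of 100% of peaks to 1e-04 of its size, and the steps were tested on simulated data. Ranks shift when a list holds more weak peaks. All 10 genes were named, with their promoter regions, the best region away from promoters and every group-specific region, and the pathway genes with group-specific peaks or the 3 widest gaps each way. The rule also covers pathway genes with no peak, which are not reported here. Members and lists were chosen with earlier results of these data known. The settings varied were a minimum −log10 q-value of 5, equal numbers of peaks, promoters of 1000 bp either side, summits for whole peaks, ranks by fold, reproducible regions sharing 50% of both lengths, gene bodies only, leaving out each library and, added after seeing the data, GENCODE start sites. Python 3.11.15, numpy 2.4.6, scipy 1.17.1, pandas 2.3.3 and matplotlib 3.10.9 were used.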

Additional observations from a re-analysis of the deposited data

How the results depend on the processing

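Of 80 recomputed values, 63 stayed within 1.5 times the reported count or within the spread between libraries, and 17 moved further. The median rank difference kept its sign in each. A minimum −log10 q-value of 5 gave 2 control-specific regions and 0 genes better ranked in both control libraries, against 12.5% of coding genes. It gave a median rank difference of −12.1, where the median over all coding genes moved too, to −4.61. That filter kept 59.9% and 64.3% of control peaks and 75.6% and 85.9% of BPA peaks. Equal numbers of peaks gave 9 control-specific regions. Reproducible regions gave 20 regions common to both groups and 3 control-specific ones, and gene bodies alone gave 7 BPA-specific regions. Summits in place of whole peaks gave 7.75 genes with a promoter peak per library. They gave 1 gene better ranked in both control libraries, against 20% of coding genes. GENCODE start sites gave 9.75 genes with a promoter peak per library. Ranks by fold gave 0 genes better ranked in control, against 15.9% of coding genes. Beyond the smaller windows and the fewer peaks or libraries these settings use, the cause of the moves was not tested.

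Leaving out each library gave 5 to 23 control-specific regions, 15 to 23 BPA-specific regions and 12 to 20 intronic regions common to the libraries. BPA-specific regions outnumbered control-specific ones without control 2 and without BPA 1. They were fewer without control 1 and equal in number without BPA 2, under definitions that then differ between the groups. The count of genes better ranked in BPA was 5 under every alternative with all 4 libraries and curated start sites, 5 to 7 without a library and 6 with GENCODE start sites. The share of coding genes better ranked in BPA was 40.7% in the main setting. It rose to 50.0% at a minimum −log10 q-value of 5 and 44.3% with equal numbers of peaks, and was 39.0% by fold. No paired analysis was possible because the comparison comes from no test and the replicate numbers are only names. The peak lists hold no read totals, and depth limits the detection of weak peaks.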
